A study of Drosophila melanogaster with 3 samples.

Results

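The genes for the proteins of the small subunit of the cytosolic ribosome were examined for binding of the CG14050 protein in Drosophila melanogaster embryos. Members were the protein-coding genes of the Ensembl BDGP6 annotation whose symbol is RpS followed by a digit, plus stubarista (sta), which encodes the small-subunit protein uS2. This gave 39 genes of 13945 protein-coding genes on the 6 chromosome arms, 19 of them for proteins of the head of the subunit and 20 for proteins of its body. The study was chromatin immunoprecipitation followed by sequencing (ChIP-seq) on whole embryos aged 0 to 24 hours from a transgenic line in which CG14050 carries an eGFP tag, precipitated through GFP. There were 3 biological replicates of 1 group, and no other genotype, treatment or control library was analysed here, so all comparisons are between genes. Whole embryos of this age span hold all embryonic tissues, and binding in some cells only cannot be told apart from weak binding in all.

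The small subunit binds the messenger RNA and hosts its decoding, and the large subunit joins amino acids. Every growing cell needs both in equal amounts, and loss of 1 copy of many of these genes gives the Minute flies, which develop slowly and have short bristles. In Drosophila, transcription of ribosomal protein genes starts at a pyrimidine-rich initiator called TCT, and the TBP-related factor Trf2, M1BP and Dref have been described at their promoters.

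CG14050-eGFP was found at the start of 21 of the 39 genes. A gene is called bound here if the summit of a peak lies within 500 bp of any of its annotated transcription start sites (TSSs), on either side, and the peaks are those of the list that the authors call conservative, which holds 3515 peaks. The bound share was 53.8% (exact 95% interval 37.2% to 69.9%), beside 14.3% of all protein-coding genes (1998 of 13945). Intervals cover counting error only, since genes are not replicates. Of the 7439 genes with any ranked region at that distance, which is the deeper list from which the conservative peaks were drawn, 26.9% were bound, and of the 31 members among them 21 (67.7%). The authors' separate lists for each replicate called 17, 15 and 18 members in replicates 1, 2 and 3 (mean 16.7 ± 1.53 SD, n = 3). These are 43.6%, 38.5% and 46.2% of the members, beside 9.53%, 11% and 10.7% of all protein-coding genes. In all 3 replicates 14 members were bound (35.9%), beside 6.87% of all genes. Every replicate thus gave a similar share, with a range of 3 genes between the replicates.

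**Figure D1:**
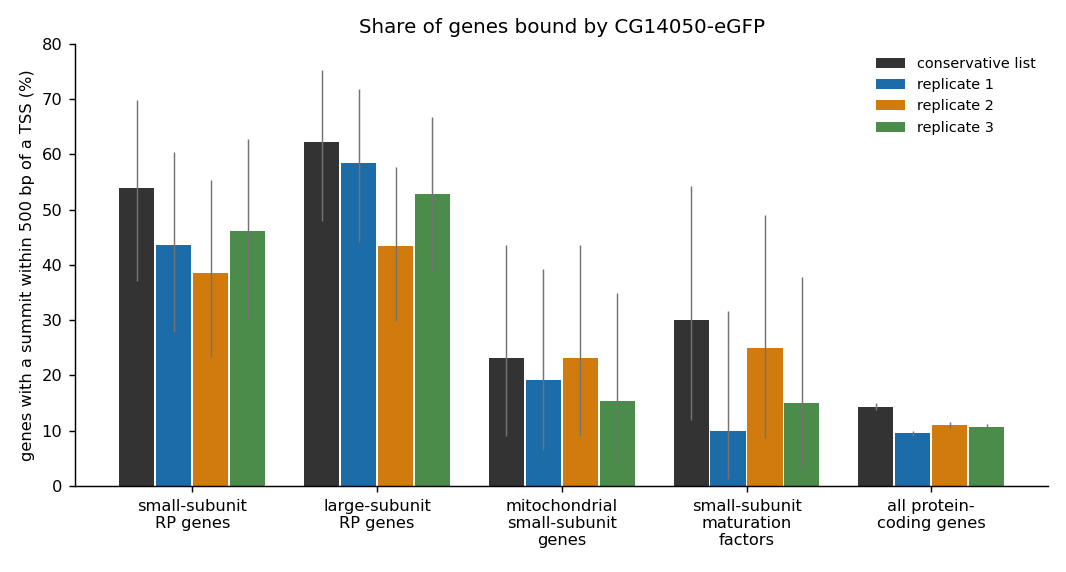
Share of genes (y axis, percent) with a peak summit within 500 bp of a TSS, in the conservative list and in each of the 3 replicates, for 5 sets of genes (x axis); lines are exact 95% binomial intervals. Small-subunit genes sit between 38.5% and 53.8%, and all protein-coding genes between 9.53% and 14.3%.

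The genes of the large subunit, the nearest set in function, had a similar share. Of 53 such genes 33 were bound (62.3%, interval 47.9% to 75.2%), an interval that overlaps that of the small subunit over most of its length. Genes for the small subunit of the mitochondrial ribosome, which translates the few messages of the mitochondrial genome, had 6 bound of 26 (23.1%, interval 8.97% to 43.6%). Among factors that mature the small subunit, of which 20 of 26 names matched the annotation, 6 were bound (30%, interval 11.9% to 54.3%), led by l(3)72Dn, NHP2 and Fib with signals of 233, 216 and 120.2. Of 8 factors described at ribosomal protein promoters, 4 were bound, and Dref, BEAF-32 and pzg had the highest signals (185, 183 and 148). The intervals of the last 3 sets are wide, and no test was made between sets.

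The bound members covered a middle range of peak strength. Signal is a height given to each peak by the authors on a scale of their own, so values are set side by side only within a list. Over the 21 members it had a median of 168 in the conservative list (44.1 to 421), beside a median of 145 over the 1605 peaks of that list that lie within 500 bp of any protein-coding TSS. The median member stood at percentile 58.8 of those promoter peaks. Taken by gene in the same way, the other bound genes had a median signal of 158 and a median percentile of 54.6. The median percentile of the members was lower in the separate lists, at 38.0 in replicate 1, 43.8 in replicate 2 and 52.4 in replicate 3. The other bound genes had 52.7, 52.1 and 51.8 there, so the members stood below them in replicates 1 and 2. So the small-subunit genes were bound often, while their peaks were not among the highest of the study: the best of them, at RpS27, ranked 257 of 3515.

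The summits of the members lay close to the start of transcription. The summit was a median of 27 bp from the nearest TSS of the member, beside 148 bp over the other 1977 bound genes. It lay within 50 bp of the TSS in 17 of 21 members (81.0%, exact 95% interval 58.1% to 94.6%), beside 205 of 1977 other bound genes (10.4%, interval 9.06% to 11.8%), and within 100 bp in 20 of 21, beside 545 of 1977. Members had the summit upstream of the TSS in 11 cases and downstream in 10 (52.4% upstream, interval 29.8% to 74.3%), while 87.8% of the other bound genes had it upstream. That even split was not seen in the separate lists, where 76.5%, 73.3% and 72.2% of the called members in replicates 1, 2 and 3 had the summit upstream, beside 85.1%, 89.1% and 89.6% of the other bound genes. From the canonical TSS alone, 14 of 21 conservative summits lay upstream (66.7%), beside 86.8% of 1704 other bound genes. The share within 50 bp was also lower in the separate lists, at 64.7%, 60% and 72.2% of the called members, beside 10.9%, 8.10% and 10.02% of the other bound genes. The gap in distance was there in each separate list: the median distance was 22, 43 and 30.5 bp for members in replicates 1, 2 and 3, beside 149, 155 and 147 bp for the other bound genes (mean 31.8 ± 10.6 against 150.3 ± 4.16 bp, SD, n = 3 each). Using only the canonical TSS of each gene left 28 bp for members and 149 bp for the other bound genes. Counting each promoter peak once, with its nearest protein-coding TSS, gave a median of 130 bp over the 1605 peaks, with 15.3% within 50 bp. Genes of the large subunit were near as well, at a median of 41 bp over 33 bound genes and with 66.7% within 50 bp, and 81.8% of their summits lay upstream. In replicates 1, 2 and 3 the large-subunit genes had 61.3%, 56.5% and 57.1% within 50 bp and 77.4%, 82.6% and 89.3% upstream, and no test was made between the subunits. Bound genes of the mitochondrial small subunit had a median of 144 bp and those of the maturation factors 139.5 bp, with no summit within 50 bp in either set.

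**Figure D2:**
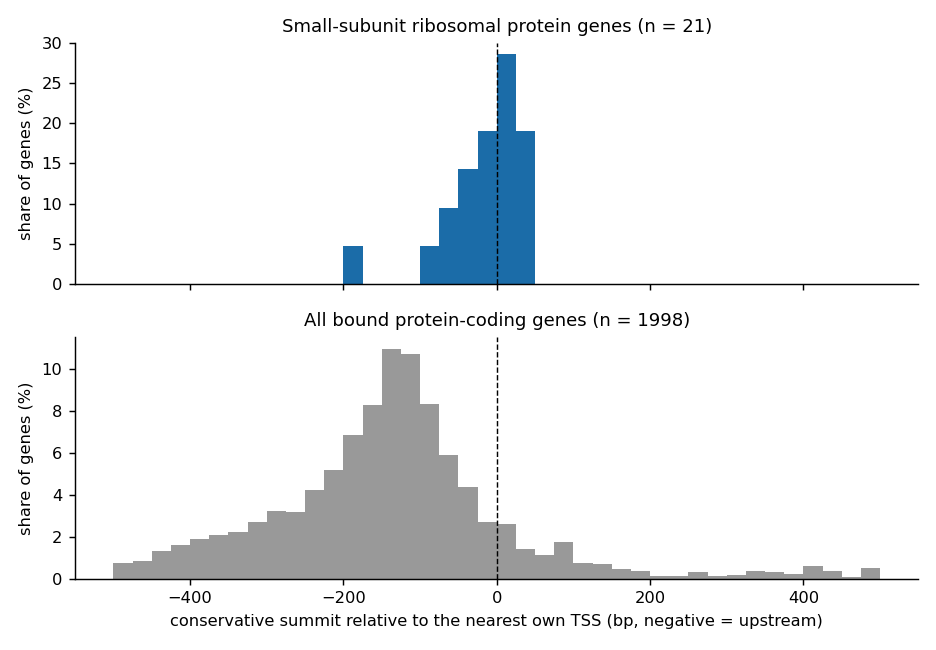
Distance from the strongest conservative summit to the nearest TSS of the same gene (x axis, bp, negative is upstream) as a share of genes (y axis, percent, bins of 25 bp), above for the 21 bound small-subunit genes and below for all 1998 bound genes, the 21 included. The members gather within 100 bp on both sides of the TSS with RpS20 at -198 bp, while the lower panel peaks upstream.

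The positions were about as repeatable as those of other genes. In the 14 members bound in all 3 replicates, the 3 summits of a gene spanned a median of 29.5 bp (6 to 55 bp), beside a median of 30 bp over 944 other genes bound in all 3. RpS27 was the tightest with 6 bp and RpS16 the widest with 55 bp. In 17 of the 21 members the conservative summit was the middle of its peak, give or take 1 bp, and the median peak width was 330 bp, so for those 17 the summit carries the position of the peak and no more. By annotation 10 summits fell in intergenic sequence, 10 in a 5' UTR and 1 in an intron.

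The strongest member was RpS27, which encodes eS27, a zinc-binding protein of the body. Its peak spans chr3R:25247403-25247637 on dm6, with a summit 8 bp upstream of the TSS. The signal at RpS27 was 109.95 in replicate 1, 143 in replicate 2 and 149 in replicate 3, and 421 in the conservative list. All 3 replicates had it above percentile 99 of their ranked regions (99.3, 99.4 and 99.4). The nuclear pore gene Nup37 starts 144 bp away on the other strand, and the same summit lies 136 bp from its TSS.

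RpS20 encodes uS10, a protein of the head, and had the next highest signal, 284 (rank 540, chr3R:20821939-20822072). Its replicate signals were 113, 102 and 78.7, all called. The summit lay 198 bp upstream of RpS20 but 135 bp from the TSS of CG17271, on the opposite strand, and RpS20 was the only bound member whose nearest protein-coding TSS was not its own. The same peak therefore also counts for CG17271. Its distance stays inside a window of 200 bp in the conservative list and in replicates 1 and 2, but the summit of replicate 3, at -220 bp, does not.

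RpS25 (eS25, in the head, needed for some internal initiation in yeast and mammals) had signals of 70.5, 79.8 and 122 in replicates 1, 2 and 3, and 283 in the conservative list (chr3R:11216184-11216513), with the summit at -62 bp. RpS28b (eS28, in the head near the exit of the messenger RNA) had 83.0, 101 and 109.8, and 280.1 in the conservative list (chrX:9554507-9554665), with the summit at -27 bp. RpS4 (eS4, in the body) had 89.9, 63.2 and 101, and 258 in the conservative list (chr3L:13041733-13041814), at +17 bp. These 3 genes and RpS27 lay above percentile 97 of the ranked regions in every replicate.

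RpS21 encodes eS21, whose loss in flies is known to give overgrown blood-forming organs. It had signals of 52.3, 73.5 and 104 in replicates 1, 2 and 3 and 238 in the conservative list (chr2L:2856015-2856118). The replicate summits lay 9, 17 and 9 bp downstream of the nearest annotated TSS. From the canonical TSS of RpS21 the conservative summit lay at -32 bp. RpS27A, made as a fusion of eS31 with ubiquitin, had 47.7, 53.5 and 79.0, and 192 in the conservative list (chr2L:10408116-10408445), and its summits lay 63 to 74 bp upstream of the TSS. RpS7 (eS7, in the body) had 63.3, 60.1 and 55.1, and 186 in the conservative list (chr3R:30208821-30209150). All 3 were called in every replicate.

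RpS16 encodes uS9 and had signals of 44.4, 62.8 and 74.6 in replicates 1, 2 and 3 and 185 in the conservative list (chr2R:22605932-22606261). Its conservative summit lay at -30 bp from its nearest TSS but at +352 bp from the canonical one, outside the window later searched for words. RpS23 encodes uS12 at the decoding centre, and had 52.0, 51.4 and 70.8, and 174 in the conservative list (chr2R:14216439-14216768), with summits from 9 bp upstream to 22 bp downstream of the TSS over the replicates. These complete the 10 members with the highest conservative signal. The other 4 members called in all 3 replicates were RpS15Aa, RpS29, RpS14b and RpS12, with conservative signals of 168, 157, 152 and 120.1. RpS29 (uS14) also had a weaker conservative peak, with a signal of 29.9 at +153 bp.

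Of the remaining 7 bound members, 4 were called in part of the replicates and 3 in none. RpS19a (eS19) was called in replicates 1 and 3. RpS18 (uS13, which touches the large subunit) was called in replicate 3 alone: its signal was 17.3, 24.4 and 72.1 in replicates 1, 2 and 3, which is percentile 72.7, 89.2 and 97.8 of the ranked regions.

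RpS26 (eS26, at the exit of the messenger RNA) and sta were in the conservative list and in no replicate list. Their replicate signals were 26.9, 27.9 and 33.9 at RpS26, and 28.8, 33.7 and 40.0 at sta. All 6 values lie above percentile 91 of the ranked regions of their replicate.

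**Figure D3:**
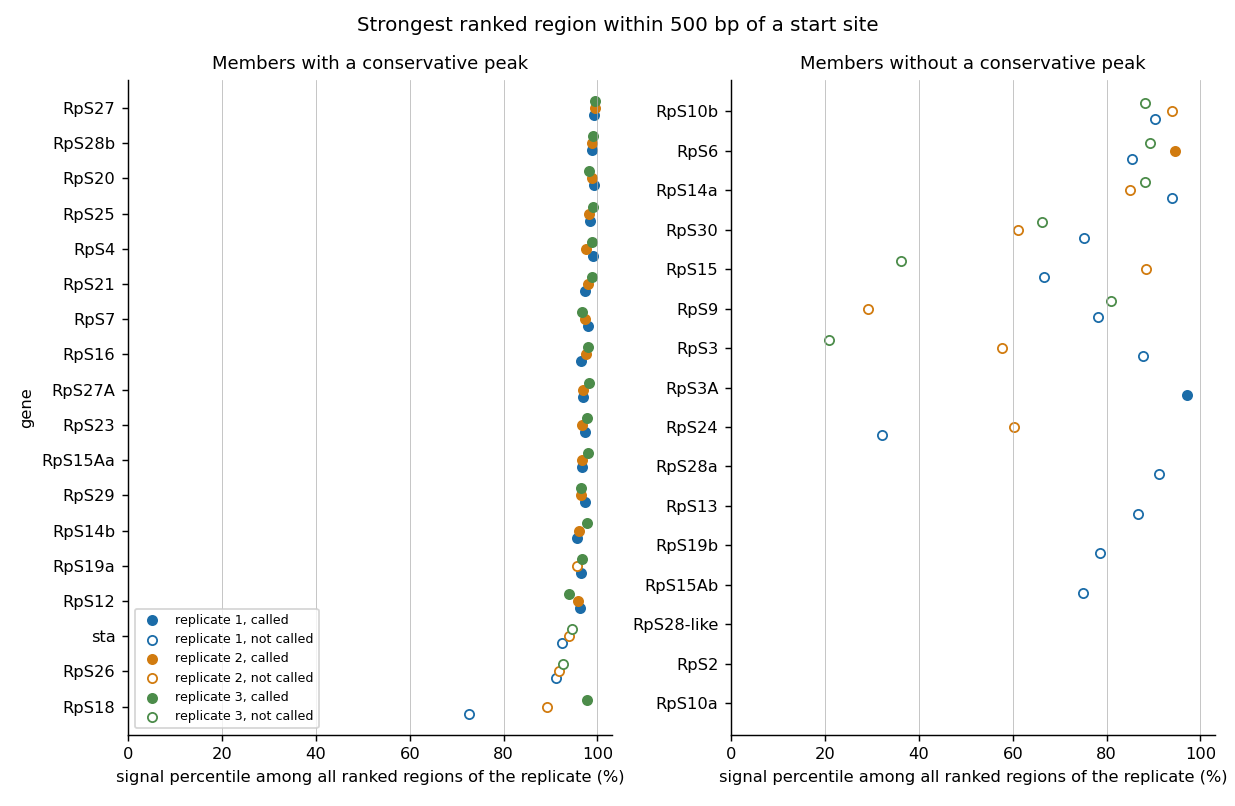
Signal of the strongest ranked region within 500 bp of a TSS, as a percentile of all ranked regions of that replicate (x axis, percent), for 18 of the 21 members with a conservative peak and 16 of the 18 without (y axis, genes by mean percentile, a missing region counted as 0). Filled points are regions in the thresholded list of the replicate; RpS18 is the bound gene plotted with the widest spread, from 72.7 to 97.8, and RpS2, RpS10a and RpS28-like have no point.

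The replicates ranked alike the members that had a ranked region in each of them. Over the 29 members with a ranked region in all 3, Spearman's rho of the signals was 0.911 between replicates 1 and 2, 0.817 between 1 and 3 and 0.878 between 2 and 3. Members that lack a region in some replicate are left out, such as RpS3A, at percentile 97.1 in replicate 1 and without one in replicates 2 and 3. The correlation is a description over genes, which share the 3 libraries and the region caller. Members with a conservative peak had a median percentile of 96.6 in replicate 1, 96.6 in replicate 2 and 97.8 in replicate 3. Members without one had 86.0, 84.9 and 66.3, over the 14, 9 and 9 of them that had a region at all. The conservative call used the same signals, so this difference describes the call and is no test of it.

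The 18 members without a conservative peak were not alike. Of these, 10 had a ranked region within 500 bp in the list behind the conservative one and 8 had none. The best irreproducible discovery rate (IDR) of a region, the share of false repeats among all regions that score at least as well, was 0.0118 to 0.867 in the 10, beside the 0.01 that the authors' thresholded lists reach. RpS6, the substrate of S6 kinase, came nearest, with 0.0118 for a region at +57 bp. Just inside the threshold stood RpS18 with 0.00614 and RpS26 with 0.00447.

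RpS6 also had the only called region near the edge of the distance window. Its replicate signals were 21.8, 36.3 and 28.1, at -427, -495 and -4 bp, and only the region of replicate 2 at -495 bp was called. The neighbour on the other strand is bys, a maturation factor of the small subunit, which starts 549 bp away. RpS3A (eS1, on the platform of the body, and the only member on chromosome 4) was called in replicate 1 with a signal of 49.3 at -32 bp and had no ranked region in replicates 2 and 3. The conservative peaks matched a list whose IDR pairs regions of replicates 2 and 3 and none of replicate 1. The peaks themselves are described as derived from the alignments of all 3 replicates. RpS3A was also absent from the lists of 3219 and 3247 peaks, whose paired entries match replicate 1 and 1 other replicate. The nearest conservative summit was 357615 bp away from it, on an arm where 3 of 80 genes were bound.

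RpS3, RpS9, RpS30, RpS15, RpS10b and RpS14a had a ranked region in every replicate and a call in none. At RpS3 (uS3, at the entry of the messenger RNA) the signals were 23.4, 14.5 and 12.7 in replicates 1, 2 and 3, with summits 25 to 55 bp upstream of the TSS. RpS9 (uS4) had 18.8, 11.0 and 23.1, RpS30 (eS30, made as a fusion with a ubiquitin-like protein) had 18.001, 14.98 and 19.2, and RpS15 (uS19) had 16.01, 23.6 and 14.7. In these 4 genes the summits lay at most 96 bp from the TSS, and all 12 signals stay below percentile 89.

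RpS24 (eS24) had weak regions in replicates 1 and 2, with signals of 11.0 and 14.8. RpS13 (uS15) had 1 region, in replicate 1, with a signal of 22.6 at +88 bp, and its nearest conservative summit was 2020 bp away. No ranked region lay within 500 bp of RpS2, RpS10a or RpS28-like in any of the 3 replicates. RpS2 encodes uS5, which lines the entry of the messenger RNA, and its nearest conservative summit was 17546 bp away. The distance was 9367 bp for RpS10a and 5458 bp for RpS28-like. For the rest without a conservative peak it was 1140 to 32519 bp, apart from RpS3A.

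**Figure D4:**
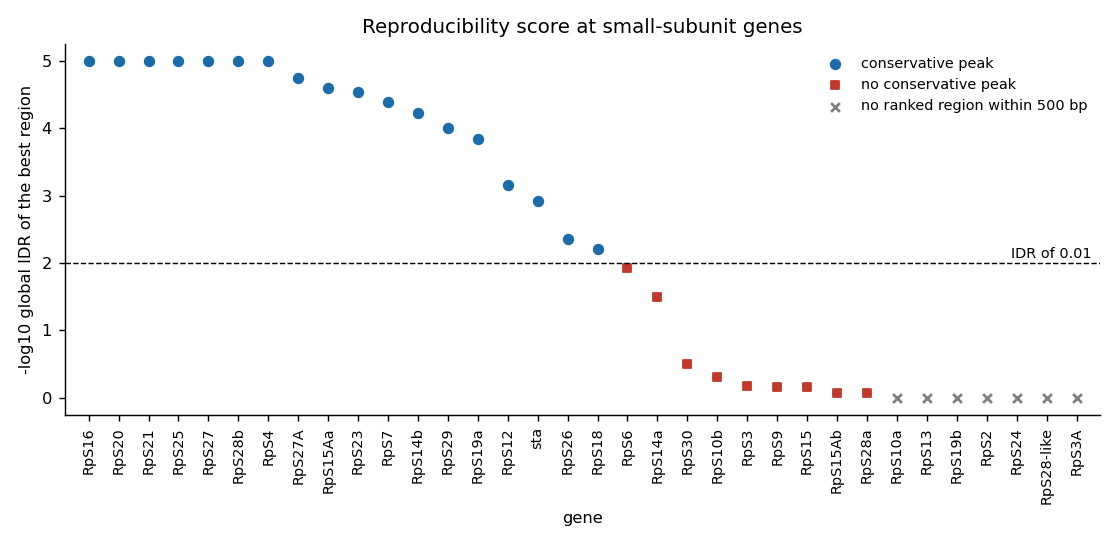
The -log10 of the lowest global IDR within 500 bp of a TSS (y axis) for 34 of the 39 genes (x axis), from the ranked list behind the conservative peaks; crosses at the bottom mark 7 genes with no ranked region there. The dashed line is an IDR of 0.01, and RpS6 at 0.0118 is the gene just below it.

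The duplicated genes split within their pairs. In 6 pairs the symbols differ only in a final a or b, and in 5 of them 1 copy was bound and the other was not. Among these RpS14b, RpS15Aa, RpS19a and RpS28b were bound, and RpS14a, RpS15Ab, RpS19b and RpS28a were not. In the sixth pair neither RpS10a nor RpS10b was bound. Between copies, the 300 bases from 250 bp before the TSS onward had an identity of 49.0% to 53.6% in a global alignment.

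RpS19a, the copy in general use, had signals of 45.0, 42.6 and 57.3 in replicates 1, 2 and 3, and RpS19b, known from the germline, had 1 region of 18.99 in replicate 1, at -434 bp. The copy without a conservative peak thus lacked a ranked region in 2 of the 3 replicates. The gene CG5854 starts 382 bp upstream of RpS19b on the other strand, and the region at -434 bp lies nearer to that start.

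RpS15Aa had 45.3, 50.7 and 76.4, and RpS15Ab, with Lsm10 starting 36 bp away on the other strand, had 17.9 in replicate 1 alone. RpS28b, given above, stood against RpS28a with 26.9 in replicate 1 alone, at -148 bp. The gene Axn starts 194 bp upstream of RpS28a on the other strand, and that region lies nearer to the start of Axn. RpS10b, the RpS10 copy in general use, had 25.7, 34.0 and 27.3, and RpS10a, known from the testis, had no ranked region. The RpS10b summits lay at +313, +19 and +322 bp in replicates 1, 2 and 3, so these signals do not come from a single repeated position. In every one of these pairs the stronger copy lies on X, and RpS10b is the one of them that was not bound. In the RpS10 pair, as in the RpS19 pair, the X copy is also the copy in general use, so place and use cannot be told apart.

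RpS14a and RpS14b are tandem copies on X that encode the same protein, uS11, with starts 1156 bp apart. RpS14b had signals of 39.3, 45.1 and 72.3 in replicates 1, 2 and 3, all called, and RpS14a had 32.6, 21.2 and 27.3, none called. RpS14b was above RpS14a in all 3. The first 300 bases of the copies had an identity of 57.4%. No source used here says how reads that fit both copies were placed, so the split between them is uncertain where their sequences match.

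By arm, 6 of 9 members were bound on X, 3 of 6 on 2L, 3 of 7 on 2R, 3 of 4 on 3L and 6 of 12 on 3R. All bound genes made up 13.3% to 15.4% of the genes of these arms, so no arm of the 5 was itself rich in bound genes. By place in the subunit, 11 of 19 members of the head and 10 of 20 of the body were bound. Neither grouping separated bound from unbound members at these counts.

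The neighbourhood of the genes is crowded. For 10 of 21 bound members (47.6%, exact 95% interval 25.7% to 70.2%) the same peak lay within 500 bp of a TSS of at least 1 other protein-coding gene, beside 56.2% of the other bound genes (interval 54.03% to 58.4%). In 9 of these 10 the summit lay nearer to the member or, at RpS27A and Ip259, at 71 bp from both. Small nucleolar RNAs, which guide the chemical modification of ribosomal RNA, lie on the same strand inside 13 of the 39 genes, 9 of the 21 bound and 4 of the 18 unbound. Among the other bound genes 30 of 1977 hold one (1.52%). The shares over all protein-coding genes and over large-subunit genes are not given here, and a link of these RNAs with binding was not tested.

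The sequences at the TSS were searched for 8 kinds of short word. All but ACAGTG are known from core promoters or from ribosomal protein genes, and no source is given here for ACAGTG. The words of the TCT type, CTTTT or CTTTC, were searched on the gene strand from 10 bp before the TSS to 15 bp from it. They were found in 14 of 21 bound members (66.7%, exact 95% interval 43.0% to 85.4%), in 9 of 18 unbound members (50%, interval 26.02% to 74.0%) and in 6.80% of 13944 protein-coding genes with a canonical TSS. The sequences printed here, of 7 bound and 3 unbound members, run from 60 bp before the canonical TSS through its first 20 transcribed bases, 5' to 3' on the strand of the gene, so that the TSS is base 61 of each. They come from the RefSeq sequence of Release 6 of the genome, which is dm6. They lie for RpS27 at chr3R:25247495-25247574 (minus strand), RpS25 at chr3R:11216268-11216347 (minus strand), RpS28b at chrX:9554563-9554642 (plus strand), RpS19a at chrX:16637834-16637913 (plus strand) and RpS14b at chrX:7934838-7934917 (plus strand). The others lie for RpS20 at chr3R:20822121-20822200 (plus strand), RpS4 at chr3L:13041696-13041775 (plus strand), RpS14a at chrX:7933682-7933761 (plus strand), RpS6 at chrX:7901312-7901391 (minus strand) and RpS3 at chr3R:23358752-23358831 (plus strand). Capitals mark the TCT words within their search window, TATCGATA (the DNA replication-related element, DRE, bound by Dref), GTCACACT and CAACTTCA. In the printed sequences every TCT word starts downstream of base 61, so none of them begins at the annotated TSS. RpS27, RpS20 and RpS4 are shown as strong members with no TCT word, RpS25 for a DRE with a TCT word, RpS28b and RpS19a for a word they share, RpS14b and RpS14a as tandem copies, and RpS6 and RpS3 as unbound genes with a TCT word.
RpS27: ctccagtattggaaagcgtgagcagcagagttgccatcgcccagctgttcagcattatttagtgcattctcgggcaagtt
RpS25: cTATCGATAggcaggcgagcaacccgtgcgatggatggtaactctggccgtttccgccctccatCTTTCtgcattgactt
RpS28b: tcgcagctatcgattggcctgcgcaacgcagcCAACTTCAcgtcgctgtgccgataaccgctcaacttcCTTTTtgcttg
RpS19a: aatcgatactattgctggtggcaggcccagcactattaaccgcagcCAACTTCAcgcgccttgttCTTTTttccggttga
RpS14b: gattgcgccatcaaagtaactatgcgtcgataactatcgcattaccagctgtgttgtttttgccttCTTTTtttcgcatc
RpS20: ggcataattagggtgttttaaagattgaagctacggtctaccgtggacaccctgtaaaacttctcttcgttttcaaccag
RpS4: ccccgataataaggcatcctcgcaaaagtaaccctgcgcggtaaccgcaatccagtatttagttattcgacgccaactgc
RpS14a: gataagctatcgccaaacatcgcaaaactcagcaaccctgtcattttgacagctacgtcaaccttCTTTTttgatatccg
RpS6: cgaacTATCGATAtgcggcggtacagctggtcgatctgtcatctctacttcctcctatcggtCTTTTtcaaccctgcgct
RpS3: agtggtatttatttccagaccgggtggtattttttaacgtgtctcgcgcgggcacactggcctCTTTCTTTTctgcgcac

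RpS14a and RpS14b both have CTTTT in the window searched for TCT words, so this word did not separate the bound from the unbound copy. RpS27, the strongest member, has neither TCT word nor DRE in the window searched. In the large subunit 36 of 53 genes had a TCT word (67.9%), a share like that of the bound small-subunit genes, and over all 1998 bound genes it was 8.26%.

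The other words were searched on both strands from 250 bp before the canonical TSS to 50 bp from it. TATCGATA was found in 6 of 21 bound members (28.6%), 7 of 18 unbound members (38.9%) and 8.94% of all genes. Its core ATCGAT, which overlaps it, was in 8 bound members (38.1%), 10 unbound members (55.6%) and 22.7% of all genes. TATAAA, the TATA box, was in 13 bound members (61.9%), 6 unbound members (33.3%) and 45.3% of all genes. From 100 bp before the TSS to 50 bp from it, the 19 members with TATAAA became 5. The word of Motif 1, GTCACACT, was in 2 bound and 2 unbound members, and in 6.45% of all genes, and 2 of these 4 members were left in that shorter window. Over all bound genes the shares were 12.3% for TATCGATA, 25.5% for ATCGAT, 46.1% for TATAAA and 8.66% for GTCACACT.

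CAGCTG was in 4 bound members (19.05%), 2 unbound members (11.1%), 24.4% of all bound genes and 17.9% of all genes. ACAGTG was in 5 bound members (23.8%), 3 unbound members (16.7%) and 13.9% of all genes. Over all bound genes ACAGTG was in 22.5%, a share near that of the bound members, and over large-subunit genes in 20.8%. Its 8 members became 3 in the shorter window and 2 on the gene strand alone. GAGAG, the word of the GAGA factor, was in 4 of 21 bound members (19.05%) and 0 of 18 unbound members, for which the exact interval reaches 18.5%, and in 30.2% of all genes. Of the 4 members with GAGAG, 1 was left in the shorter window and 1 on the gene strand alone. Over all bound genes GAGAG was in 32.1%. The intervals of bound and unbound members overlapped for all 8 kinds of word. Base composition was close as well, with a median GC content of 38.7% in bound members, 36.7% in unbound members and 38% in all genes.

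CAACTTCA was chosen after the sequences were seen and supports nothing. It lay on the gene strand in 4 bound members, RpS19a, RpS21, RpS28b and sta, starting 14, 22, 28 and 19 bp before the canonical TSS, and in 0 unbound members. The centre of the word was 8.5, 13.5, 2.5 and 43.5 bp from the conservative summit. Of all bound genes 1.45% had it within the window, and of all genes 1.36%.

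**Figure D5:**
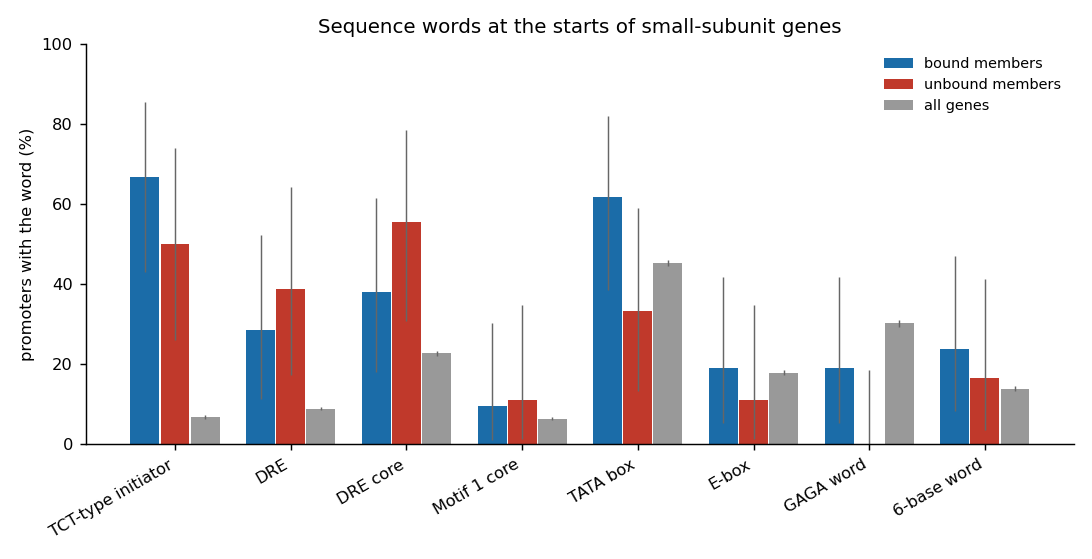
Share of promoters (y axis, percent) that hold each of 8 kinds of word (x axis) in 21 bound members, 18 unbound members and 13944 genes; lines are exact 95% binomial intervals. The TCT-type words stand at 66.7%, 50% and 6.80%, and the intervals of bound and unbound members overlap for every word.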

How the data were processed

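Peaks came from 3 replicates of CG14050-eGFP embryos (0 to 24 hours; sonicated fragments of 200 to 800 bp, per the labels). Per replicate the authors deposited 46992 to 49504 ranked regions and 2155 to 2433 thresholded peaks, and across replicates 4 thresholded lists of 3219 to 3534 peaks; read depth was not used. Each region has a deposited signal, the authors' peak height, and ranked lists a deposited −log10 global IDR. The aligner and the peak caller were not given in the sources used here. Every conservative peak matched a region of a ranked list with paired entries, whose heights are deposited as scores. Of these entries, 63.4% and 66.2% equal regions of replicates 2 and 3 in coordinates and signal, and 0% of replicate 1. The IDR of that list thus compares replicates 2 and 3. The across-replicate lists are described as derived from the alignments of all 3 replicates, so replicate 1 is not left out of their peaks and signals.

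Coordinates are dm6, and 0 peaks ended past a reference arm. TSSs came from Ensembl release 115, sequence from RefSeq, with pandas 2.3.3, scipy 1.17.1 and Biopython 1.88; the TSS assignment was tested on simulated summits. Intervals are exact (Clopper-Pearson, 95%). Promoters of all genes were windows around 13944 canonical TSSs. No test was run: 1 group, and genes are no replicates. Values per replicate are given for the 10 strongest bound members, paralogue pairs, members near the distance limit and unbound members with a region; other genes were named after their values were seen. Members and lists were chosen with earlier results of these data known. Alternatives tried were the window, the TSS set, the list, a stricter IDR, leaving out each replicate, overlap and word windows. Single values of some members are not reported here; counts and medians over the members include them.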

Additional observations from a re-analysis of the deposited data

How the results depend on the processing

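The number of members bound in the conservative list, 21, was 14 to 21 under the 12 alternatives. The windows of 200 and 1000 bp, the canonical TSS and the peak interval in place of the summit gave 21. The 3 other across-replicate lists gave 20, 19 and 20, an IDR of at most 0.005 gave 20, the stronger part of the list 14, and members also called in at least 1 replicate list (chosen after seeing the data) 18. Leaving out each replicate in turn gave 14 to 16 members bound in both others, against 14 in all 3. Requiring 50% reciprocal overlap gave 10, and 1 bp (chosen after seeing the data) 14. The median distance of 27 bp became 43 bp in the replicate 2 list, and the median percentile of 58.8 became 38.0 in replicate 1 and 43.8 in replicate 2; the cause was not tested. Of 106 single-member percentiles in other lists 48 moved by more than the spread between replicates, and 6 of 14 word counts by over 1.5 times (those of GTCACACT and TATAAA in the shorter window, and of GAGAG and ACAGTG there and on the gene strand). No paired analysis was possible because there is only 1 group. Number of ranked regions, not reads, is the only measure of depth here, so members without a peak were not detectable at this threshold rather than shown to be unbound.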
